A study of Homo sapiens with 9 samples.

Results

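The 10 genes described here encode death receptors, the adaptors and caspase-8 complex that assemble on them, and the kinase, deubiquitinase and executor of necroptosis. They were taken by gene symbol from an RNA-seq table of 62710 genes and are TNFRSF10A, TNFRSF10B, TNFRSF1A, FADD, TRADD, CASP8, CFLAR, RIPK1, CYLD and MLKL. All 10 were found, were counted in every library and passed the filter on low values. The libraries came from A375R, a line of human melanoma cells with resistance to PLX4032, an analogue of vemurafenib. Cells received DMSO, VHL-r (10 µM) or R4VPL3-1 (10 µM) for 2 h, with 3 libraries per treatment and 9 in all. VHL-r is the moiety that recruits the ubiquitin ligase VHL, and R4VPL3-1 is the whole degrader, in which that moiety is linked to a binder of the ubiquitin ligase RNF4. The sample titles name the R4VPL3-1 libraries as L3linker_1, the VHL-r libraries as VHL, and the control libraries as WT, without a dose or a time for the control. All groups share 1 resistant line, which by the study's methods was kept in medium with PLX4032, so the controls carry that drug too. Vemurafenib is known as an inhibitor of necroptosis.

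Death receptors are cell surface proteins that bind ligands of the TNF family and carry a death domain inside the cell. TRAIL receptors recruit FADD and caspase-8, which starts apoptosis, while the TNF receptor first recruits TRADD, RIPK1 and ubiquitin ligases, a complex that signals to NF-kB. Where caspase-8 is inactive, RIPK1 can engage RIPK3, which phosphorylates MLKL, and MLKL then opens the plasma membrane in necroptosis. All of these steps act on proteins, and the values below are levels of polyadenylated RNA in bulk cultures, where fewer cells of a type and less RNA per cell cannot be told apart.

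Of the 10 genes, FADD and TNFRSF1A fell with both compounds, and TNFRSF10A fell with R4VPL3-1. No member rose with either compound in limma, edgeR or DESeq2, and at an unadjusted p under 0.05 in limma 0 were higher with VHL-r and 1, RIPK1, with R4VPL3-1. Of all 15230 tested genes, 2334 and 2758 were higher at that unadjusted threshold, so with 10 members these counts say little. Differences between groups were tested with limma on log2(normalized count + 1), fitted over the 15230 genes whose mean reached 10 normalized counts, and a gene was called where its p, adjusted over them by Benjamini and Hochberg's method, was 0.05 or less. With VHL-r, 2 of the 10 members were called lower, against 9.51% of all tested genes, and 0 higher, against 10.3%. With R4VPL3-1, 3 of 10 were called lower, against 11.8% of all tested genes, and 0 higher, against 13.1%. The shares called lower were above the background and the shares called higher below it, and with 10 genes each of these gaps is a matter of few genes. The median log2 fold change of the members was -0.053 with VHL-r and -0.12 with R4VPL3-1, beside -0.0045 and -0.0063 over all tested genes. The comparisons with DMSO share the same 3 control libraries.

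**Figure D1:**
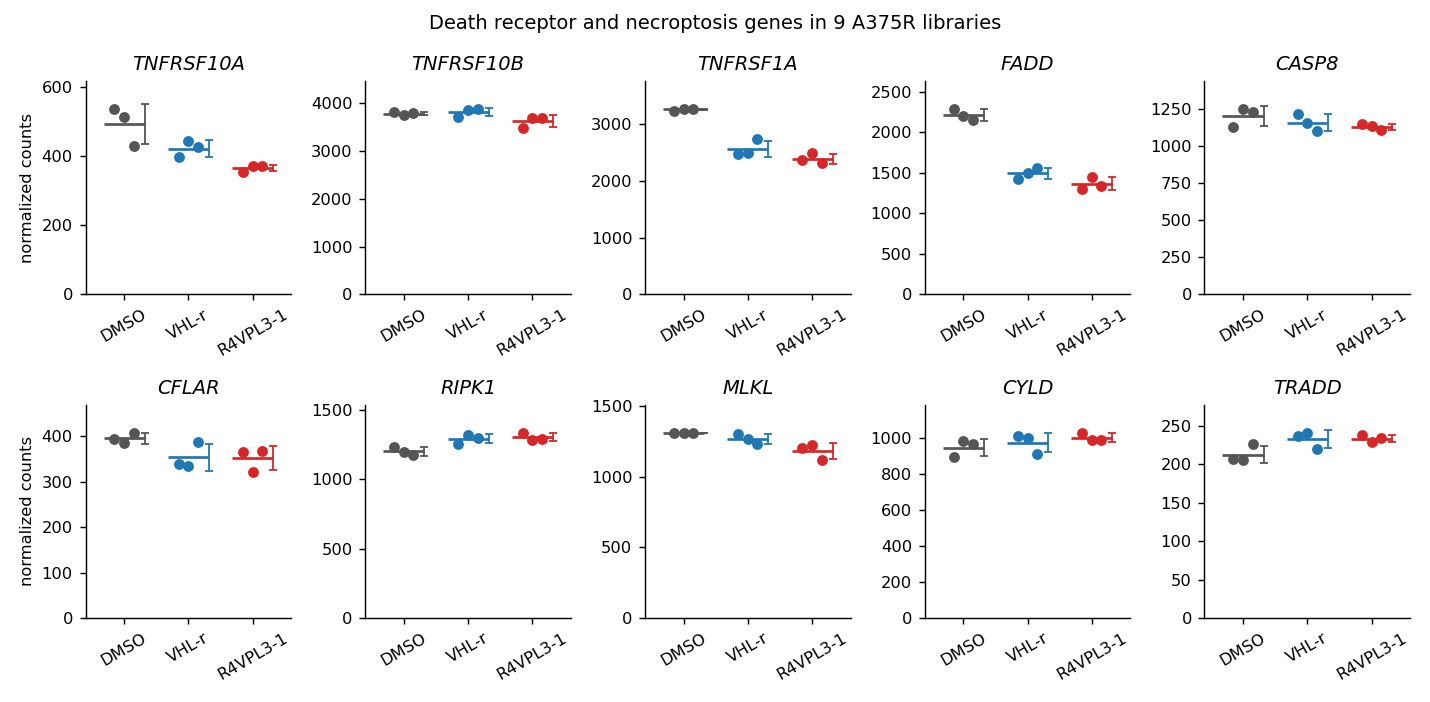
Normalized counts (y axis, from 0) of the 10 genes in each of the 9 libraries, with DMSO in grey, VHL-r in blue and R4VPL3-1 in red; points are libraries, horizontal lines are means and the bars at their right ends are SDs (n = 3). The FADD and TNFRSF1A points of both compounds lie below all DMSO points, while those of CASP8 overlap between all 3 treatments.

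FADD, the adaptor that links death receptors to caspase-8, lies at chr11:70203296-70207390 (GRCh38, plus strand) with 2 exons, and it showed the largest log2 fold change of the members with each compound. It was counted at 2290.1, 2205 and 2149 in the DMSO libraries, at 1424, 1503 and 1555 with VHL-r, and at 1299.8, 1455 and 1341 with R4VPL3-1. Every treated library lay below every DMSO library, and the ranges of both compounds overlapped each other. The means were 2215 ± 71.2 (SD, n = 3) in DMSO, 1494 ± 65.9 with VHL-r and 1365 ± 80.1 with R4VPL3-1. FADD fell by 0.57 on the log2 scale with VHL-r (95% interval -0.69 to -0.45, limma adjusted p = 2.29e-07). With R4VPL3-1 it fell by 0.70 (95% interval -0.82 to -0.58, limma adjusted p = 6.86e-09).

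TNFRSF1A, at chr12:6328757-6342114 on the minus strand, encodes the main TNF receptor. Its counts were 3242, 3271 and 3268 in DMSO, 2482, 2498 and 2732 with VHL-r, and 2375, 2486 and 2309 with R4VPL3-1. The DMSO libraries differed from each other by little, and all treated libraries were lower than all of them. TNFRSF1A fell by 0.34 on the log2 scale with VHL-r (95% interval -0.45 to -0.24, limma adjusted p = 2.85e-05) and by 0.45 with R4VPL3-1 (95% interval -0.55 to -0.35, limma adjusted p = 6.63e-07). The calls of FADD and TNFRSF1A held with edgeR and with DESeq2 on whole reads recovered from the table, and without each library in turn.

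The upstream sequences of these 2 genes are shown because they are the members that fell with both compounds. RefSeq (GRCh38.p14) gives 1 start for each, and the 250 bases before it are printed 5′ to 3′ on the gene's strand, for FADD at chr11:70203046-70203295 on the plus strand and for TNFRSF1A at chr12:6342077-6342326 on the minus strand. By the gene coordinates given above, which are not those of RefSeq, the TNFRSF1A stretch lies partly inside the gene, from 6342077 to 6342114. Capitals mark matches on either strand to the GC box GGGCGG, the ETS core CCGGAA and the CCAAT box CCAAT.
FADD: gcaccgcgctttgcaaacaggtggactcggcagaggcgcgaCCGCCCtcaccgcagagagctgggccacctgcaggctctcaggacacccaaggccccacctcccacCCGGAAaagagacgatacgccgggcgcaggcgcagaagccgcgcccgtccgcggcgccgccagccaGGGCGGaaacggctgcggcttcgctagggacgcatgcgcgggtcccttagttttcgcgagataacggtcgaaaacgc
TNFRSF1A: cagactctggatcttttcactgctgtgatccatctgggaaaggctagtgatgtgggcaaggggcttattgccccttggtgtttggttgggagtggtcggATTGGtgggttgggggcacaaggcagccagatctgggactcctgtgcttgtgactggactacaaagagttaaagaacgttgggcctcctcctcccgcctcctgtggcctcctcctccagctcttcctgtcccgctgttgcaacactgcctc
The FADD stretch held 2 GC boxes and 1 ETS core, and 68.8% of its bases were G or C. The TNFRSF1A stretch held 1 CCAAT box, none of the former 2 motifs, and 56.8% G or C. Of 35116 RefSeq promoter stretches of this length, 42.6% held a GC box, 14.5% an ETS core and 32% a CCAAT box, with a median of 58% G or C. Neither stretch held the E-box CACGTG, present in 6.34% of all, the cyclic AMP element TGACGTCA (1.65%), the TATA letters TATAAA (10.7%) or the AP-1 site TGANTCA (6.57%). These matches describe letters and not binding. FADD and TNFRSF1A shared none of the few motifs searched, and whether a common element underlies their falls was not tested. Of the 10 members 7 had an entry, and TNFRSF10A, TNFRSF10B and TRADD had none.

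TNFRSF10A and TNFRSF10B encode the 2 TRAIL receptors that carry a death domain, and they lie in 1 cluster on chromosome 8. TNFRSF10A was counted at 537, 513 and 428 in DMSO, at 396, 443 and 425 with VHL-r, and at 355, 370.1 and 373 with R4VPL3-1. Its R4VPL3-1 libraries lay below all others, whereas DMSO library 3 fell within the range of the VHL-r libraries. TNFRSF10A fell by 0.42 on the log2 scale with R4VPL3-1 (95% interval -0.61 to -0.24, limma adjusted p = 0.0012). With VHL-r its log2 fold change of -0.22 was not called (95% interval -0.40 to -0.033, limma adjusted p = 0.0938), and it was called in the fit without DMSO library 3 (log2 fold change -0.32, limma adjusted p = 0.0159). Over all 16 alternatives that adjusted p ran from 0.0159 to 0.346.

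TNFRSF10B held 3806, 3753 and 3788 counts in DMSO, 3709.7, 3855 and 3882 with VHL-r, and 3477, 3696 and 3699.9 with R4VPL3-1. The R4VPL3-1 libraries were all slightly below the others, and the difference was not called (log2 fold change -0.062, 95% interval -0.15 to 0.030, limma adjusted p = 0.344). With VHL-r the log2 fold change was 0.012 (95% interval -0.079 to 0.10, limma adjusted p = 0.890). The within-library log2 ratio of TNFRSF10A to TNFRSF10B was -2.95 ± 0.17 (SD, n = 3) in DMSO, -3.18 ± 0.054 with VHL-r and -3.31 ± 0.014 with R4VPL3-1. The ratio was lower in each R4VPL3-1 library than in any other (two-sided exact permutation p = 0.1 against DMSO, the smallest that 3 against 3 libraries allow), and p = 0.2 for VHL-r against DMSO in the same exact test. TNFRSF10A, the numerator, was itself called lower with R4VPL3-1, so that shift is no separate result.

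TRADD (chr16:67154185-67159909, minus strand), the adaptor of the TNF receptor, was counted at 207, 206 and 226 in DMSO, at 237, 242 and 220.2 with VHL-r, and at 238, 229 and 234 with R4VPL3-1. The R4VPL3-1 libraries lay above all DMSO libraries, yet TRADD was called with neither compound (log2 fold changes 0.13 with VHL-r, limma adjusted p = 0.413, and 0.14 with R4VPL3-1, limma adjusted p = 0.353). The log2 ratio of TRADD to TNFRSF1A within a library was -3.94 ± 0.074 in DMSO, -3.46 ± 0.15 with VHL-r and -3.35 ± 0.077 with R4VPL3-1 (SD, n = 3). Both compounds left this ratio above all DMSO libraries (two-sided exact permutation p = 0.1 for each). TNFRSF1A, the denominator, was itself called lower with both compounds, so this shift is no separate result.

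CASP8, the initiator caspase that FADD recruits, was not called with either compound. Its counts were 1127, 1252 and 1234 in DMSO, 1218, 1158 and 1100.0 with VHL-r, and 1149, 1136 and 1111 with R4VPL3-1. The 3 treatments overlapped. The log2 fold changes were -0.056 with VHL-r (95% interval -0.18 to 0.069, limma adjusted p = 0.590) and -0.088 with R4VPL3-1 (95% interval -0.21 to 0.037, limma adjusted p = 0.321). The log2 ratio of CASP8 to FADD moved from -0.88 ± 0.12 in DMSO to -0.37 ± 0.14 with VHL-r and -0.27 ± 0.090 with R4VPL3-1 (SD, n = 3), above all DMSO libraries in each case (two-sided exact permutation p = 0.1 for each). FADD, the denominator, was itself called lower with both compounds, so this shift is no separate result.

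CFLAR encodes cFLIP, the catalytically inactive relative of caspase-8 that restrains it. Its counts were 395, 385 and 409 in DMSO, 339, 334 and 388 with VHL-r, and 366, 322 and 368 with R4VPL3-1. VHL-r library 3 fell between the DMSO libraries, while all R4VPL3-1 libraries lay below them. Neither difference was called (log2 fold changes -0.17 with VHL-r, limma adjusted p = 0.220, and -0.17 with R4VPL3-1, limma adjusted p = 0.175). The ratio of CFLAR to CASP8 overlapped between treatments (two-sided exact permutation p = 0.5 for each compound against DMSO). CFLAR (chr2:201116154-201176687), CASP10 and CASP8 (chr2:201233443-201361836) are neighbours on the plus strand of chromosome 2, and CASP10, the other initiator caspase of this complex, stood at 35.4 to 62.5 counts. Of the exon bases of CASP8, 4.74% lie under another gene on its strand, and 1.98% of those of CFLAR, where reads of both genes cannot be told apart.

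RIPK1 (chr6:3063824-3115187, plus strand), the kinase that serves both NF-kB signalling and cell death, held 1235, 1197 and 1174 counts in DMSO, 1257, 1323 and 1299 with VHL-r, and 1337, 1283 and 1289 with R4VPL3-1. All treated libraries lay above all DMSO libraries by a small margin, and the difference was not called (log2 fold changes 0.10 with VHL-r, 95% interval -0.0067 to 0.22, limma adjusted p = 0.196, and 0.12 with R4VPL3-1, 95% interval 0.0050 to 0.23, limma adjusted p = 0.123). CYLD (chr16:50742050-50801935, plus strand), a deubiquitinase that strips ubiquitin chains from RIPK1, held 893, 981 and 966 counts in DMSO, 1012, 1000.04 and 912 with VHL-r, and 1029.9, 989 and 987 with R4VPL3-1. Its R4VPL3-1 libraries lay just above the DMSO range and its VHL-r libraries overlapped it. The log2 fold changes of CYLD were 0.041 with VHL-r (limma adjusted p = 0.721) and 0.083 with R4VPL3-1 (limma adjusted p = 0.378).

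MLKL (chr16:74671855-74700960, minus strand), the executor of necroptosis, was counted at 1305, 1311 and 1308 in DMSO, at 1299.9, 1265 and 1227 with VHL-r, and at 1199, 1226 and 1114 with R4VPL3-1. The R4VPL3-1 libraries lay below all others. At a log2 fold change of -0.15 (95% interval -0.27 to -0.035) MLKL missed the threshold with R4VPL3-1 (limma adjusted p = 0.0533), and it was called with the filter at a mean of at least 50, without R4VPL3-1 library 2 and with a replicate block. Its adjusted p over all 16 alternatives ran from 0.0391 to 0.184. With VHL-r the log2 fold change was -0.050 (limma adjusted p = 0.606).

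**Figure D2:**
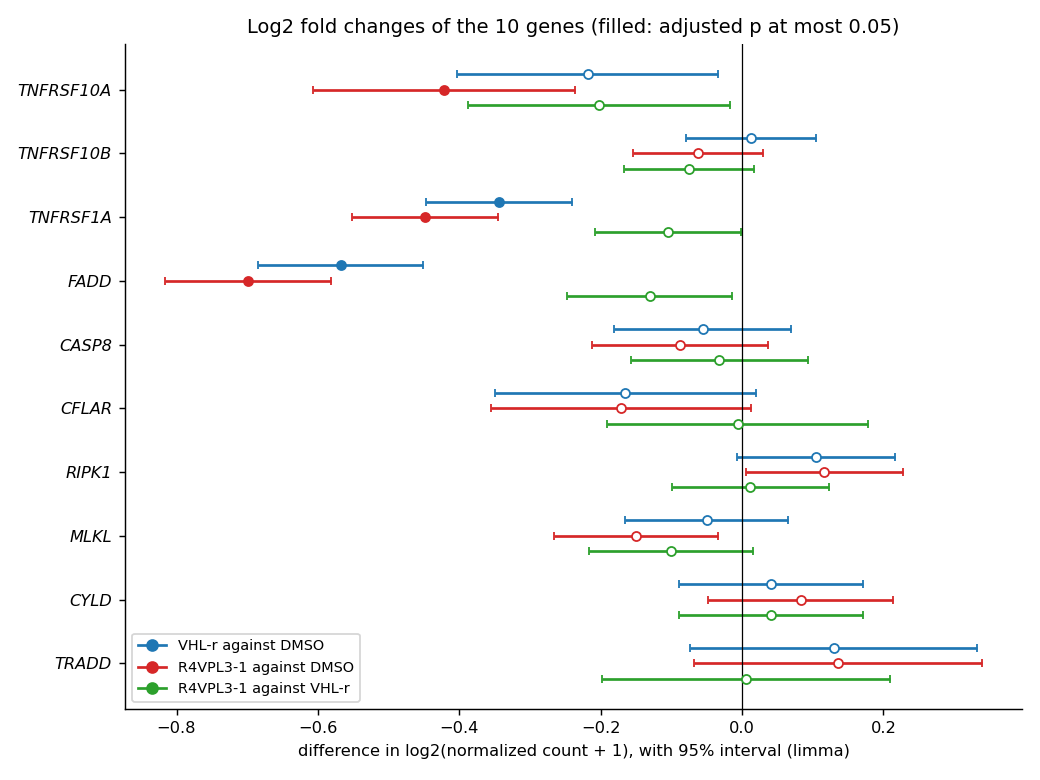
Log2 fold changes (x axis, difference in log2(normalized count + 1)) of the 10 genes in 3 comparisons, with 95% intervals from limma; filled points have an adjusted p of at most 0.05. Filled points are FADD and TNFRSF1A for VHL-r and FADD, TNFRSF1A and TNFRSF10A for R4VPL3-1 against DMSO, and no point is filled for R4VPL3-1 against VHL-r.

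R4VPL3-1 and VHL-r were compared directly, at the same dose and time, in the 1 pair of compounds that the series holds. The compounds differ by the linker and the RNF4-binding moiety. None of the 10 members was called in limma, where 3 were lower and 0 higher at an unadjusted p under 0.05, and none was called with edgeR or with DESeq2, which gave 2 each at that unadjusted threshold. Of all tested genes 1.87% were called (285, and 182 without R4VPL3-1 library 1), while 4.62% were lower and 5.28% higher at an unadjusted p under 0.05. The median log2 fold change of the members was -0.053, beside -0.0056 over all tested genes. The largest difference was that of TNFRSF10A, at -0.20 (95% interval -0.39 to -0.018, limma adjusted p = 0.424). FADD differed by -0.13 (95% interval -0.25 to -0.013, limma adjusted p = 0.411) and TNFRSF1A by -0.10 (95% interval -0.21 to -0.0011, limma adjusted p = 0.495). For MLKL the log2 fold change was -0.10 (95% interval -0.22 to 0.016) and for TNFRSF10B -0.074 (95% interval -0.17 to 0.017). The intervals of the remaining members ran from -0.16 to 0.093 for CASP8, from -0.19 to 0.18 for CFLAR, from -0.10 to 0.12 for RIPK1, from -0.089 to 0.17 for CYLD and from -0.20 to 0.21 for TRADD. These intervals bound the difference between the compounds, and a p that misses the threshold does not show that they act alike.

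Levels can be compared between genes per length. In DMSO, per kb of all annotated exons, FADD stood highest at 1297 ± 41.7 normalized counts (SD, n = 3), followed by TNFRSF1A at 775 ± 3.86 and TNFRSF10B at 755 ± 5.30. MLKL at 229.8 ± 0.579, TNFRSF10A at 168 ± 19.5 and CASP8 at 166 ± 9.37 came next, and the library ranges of TNFRSF10A and CASP8 overlapped. RIPK1 at 98.8 ± 2.52 and TRADD at 98.0 ± 5.27 could not be ordered either, and CYLD at 73.1 ± 3.66 and CFLAR at 17.6 ± 0.535 were lowest. With the length of the canonical transcript in place of all exons, TNFRSF1A came first at 1502 ± 7.49 and CASP8 and RIPK1 passed TNFRSF10A, while MLKL kept its place and CYLD and CFLAR last. CFLAR had the longest annotation of the members on both scales, 22478 and 14612 bases, so its last place depends on those lengths. Before division by length its mean in DMSO, 396, was above the 213 of TRADD. With VHL-r, FADD stood at 875 ± 38.6 per kb of all exons and TNFRSF10B at 762 ± 18.5, and with R4VPL3-1 at 799 ± 46.9 and 723 ± 25.4.

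**Figure D3:**
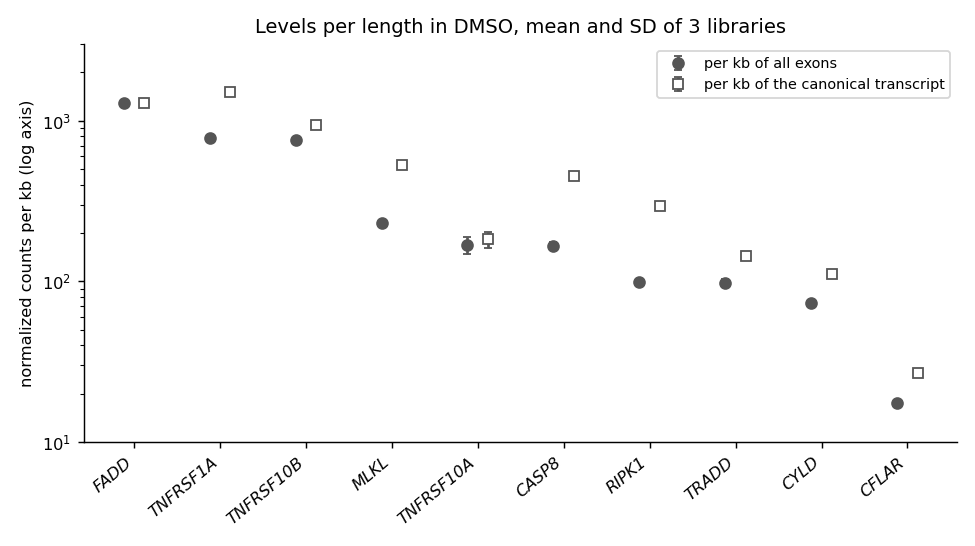
Normalized counts per kb (log axis) of the 10 genes in DMSO, as means with SD of 3 libraries; circles use the length of all annotated exons and open squares that of the canonical transcript. FADD, TNFRSF1A and TNFRSF10B are the highest on both scales and CFLAR the lowest.

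The other genes of the pathway, 42 in all, were listed by role, and 33 of them could be tested. With VHL-r 11 of the 33 were lower and 2 higher, and with R4VPL3-1 9 were lower and 2 higher, which is above the background given above for lower genes and below it for higher genes. Their median log2 fold change was -0.047 with VHL-r and -0.077 with R4VPL3-1. No ligand was expressed at a level that could be tested. TNF had 0 to 3.07 normalized counts per library, TNFSF10, which encodes TRAIL, 0 to 3.15 and FASLG 0 to 0.98. LTA, which encodes lymphotoxin alpha, was counted at 1, 2.1 and 2.05 in the VHL-r libraries and at 0 in the other 6, which is a matter of single reads (limma adjusted p = 0.0206 for VHL-r against DMSO in the fit without a filter).

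Among the other receptors, TNFRSF21, which also carries a death domain, fell by 0.50 on the log2 scale with VHL-r (limma adjusted p = 5.22e-05) and by 0.62 with R4VPL3-1 (limma adjusted p = 2.29e-06). TNFRSF25 fell by 0.40 with VHL-r (limma adjusted p = 0.00849) and was at -0.27 with R4VPL3-1 (limma adjusted p = 0.0678), and the compounds themselves differed by 0.13 (limma adjusted p = 0.805). FAS and TNFRSF1B were not called with either compound. The decoy TRAIL receptors were too low to be tested, TNFRSF10D at 0 to 4.06 counts and TNFRSF10C at 6.08 to 14.9.

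The receptor complex, its ubiquitin ligases and its kinases held 19 tested genes, of which 8 were lower with VHL-r and 7 with R4VPL3-1, and 0 were higher with either in limma (1 and 0 at an unadjusted p under 0.05). Over all tested genes 9.51% and 11.8% were called lower, and 10.3% and 13.1% higher. At the unadjusted p, 2334 and 2758 of the 15230 tested genes were higher. TNFAIP3, which encodes the ubiquitin-editing inhibitor A20 and is a known target of NF-kB, held 575, 524 and 553 counts in DMSO, 256, 267 and 227 with VHL-r, and 212, 194 and 216 with R4VPL3-1. The groups did not overlap, and TNFAIP3 fell by 1.14 with VHL-r (limma adjusted p = 1.43e-08) and by 1.40 with R4VPL3-1 (limma adjusted p = 3.24e-10), both on the log2 scale. BIRC3, which encodes the ubiquitin ligase cIAP2, held 311, 331 and 251 counts in DMSO, 141, 183 and 146 with VHL-r, and 138, 156 and 145 with R4VPL3-1. It fell by 0.92 and by 1.01 (limma adjusted p = 1.83e-05 and 3.84e-06).
TAB3, an adaptor of the kinase TAK1, fell by 0.55 with each compound (limma adjusted p = 1.22e-07 and 7.50e-08), and its relative TAB2 by 0.16 and 0.14 (limma adjusted p = 0.0169 and 0.0274). BIRC2, which encodes cIAP1, fell by 0.33 and 0.30 (limma adjusted p = 0.000112 and 0.000258). TRAF5 fell by 0.29 and 0.21 (limma adjusted p = 0.00603 and 0.0368), and OTULIN, a deubiquitinase of linear chains, by 0.24 and 0.18 (limma adjusted p = 0.00451 and 0.0227), in each case with VHL-r first. The R4VPL3-1 calls of TAB2, TRAF5 and OTULIN were all lost without DMSO library 1, without DMSO library 2, without R4VPL3-1 library 2 or without R4VPL3-1 library 3, and that of TAB2 also without R4VPL3-1 library 1. With no filter on low values, those of TAB2 and TRAF5 were lost as well, which left 9 of 11 calls. The VHL-r call of TAB2 was lost without DMSO library 1, without DMSO library 2 or without VHL-r library 2. TRAF2, an adaptor that brings cIAPs to the receptor, fell by 0.27 with VHL-r (limma adjusted p = 0.00432) and was at -0.074 with R4VPL3-1 (limma adjusted p = 0.452). The direct difference of 0.20 for TRAF2 was not called (limma adjusted p = 0.175), except without R4VPL3-1 library 3.

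Of the necroptosis genes, 4 of 7 could be tested. TICAM1, which encodes the toll-like receptor adaptor TRIF, fell by 0.46 on the log2 scale with VHL-r (limma adjusted p = 0.000264) and by 0.36 with R4VPL3-1 (limma adjusted p = 0.00241). PELI1, a ubiquitin ligase, rose by 0.34 and 0.37 (limma adjusted p = 0.000168 and 4.83e-05). RIPK3, the kinase between RIPK1 and MLKL, was at 0 in 7 of the 9 libraries and had 1 read in DMSO library 3 and 1 in VHL-r library 2. A count of 0 allows up to 3 reads in a library of 26435568 to 32085626 reads, a limit that covers the 7 libraries where RIPK3 was at 0. Of the exon bases of RIPK3, 11.1% lie under another gene on its strand, where reads of both genes cannot be told apart. MLKL had at least 1114 counts in every library. ZBP1, another activator of RIPK3, had 0 to 3.73 counts and the phosphatase gene PPM1B 0.99 to 3.73, with 21.8% of its exon bases under another gene on its strand. In R4VPL3-1 against VHL-r, 0 of the 33 genes were called with limma, edgeR or DESeq2, and each gave 3 at an unadjusted p under 0.05. Over all tested genes 1.87% were called in limma, and 4.62% were lower and 5.28% higher at that unadjusted p, so the 3 genes are close to the background share.

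**Figure D4:**
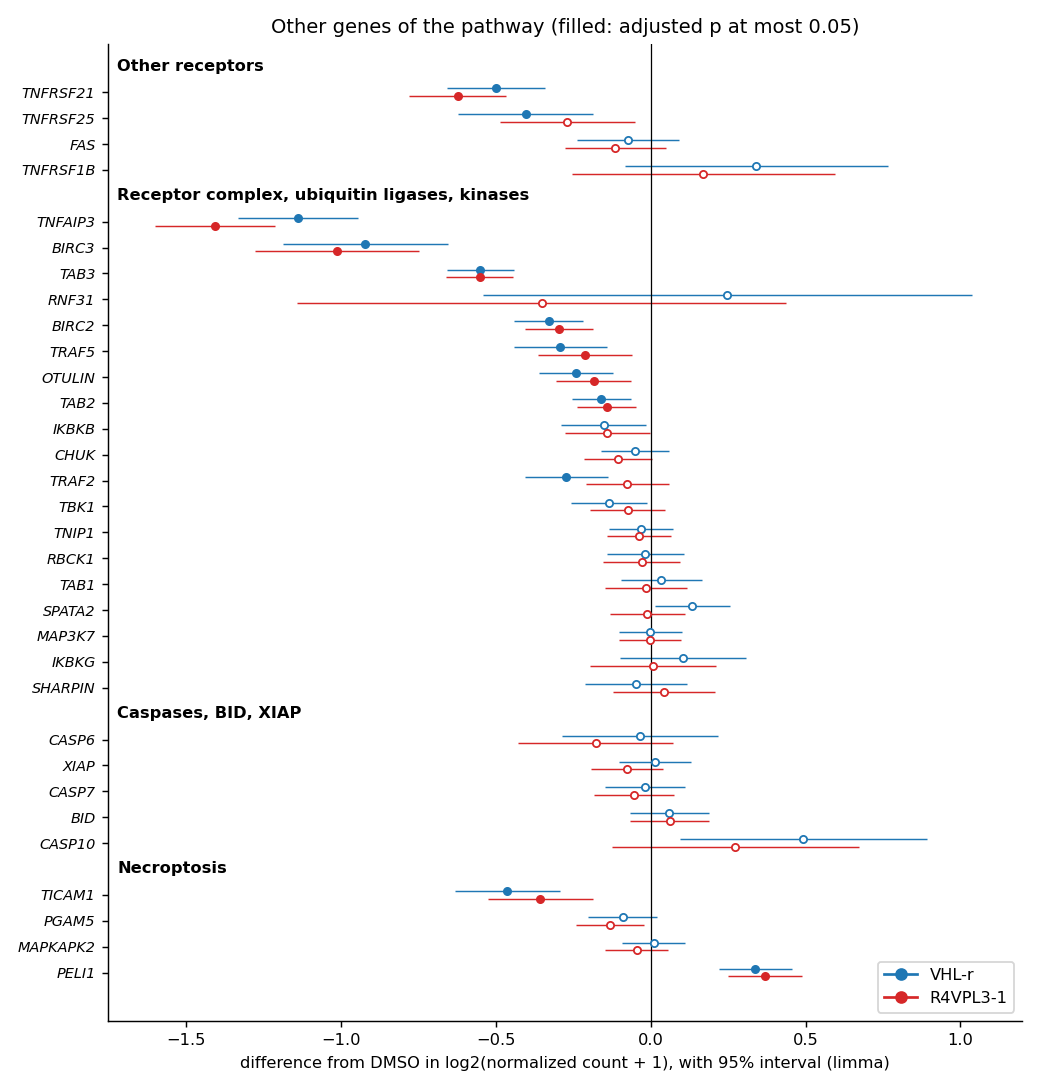
Log2 fold changes from DMSO (x axis, difference in log2(normalized count + 1)) of 32 of the 33 other pathway genes that could be tested, by role, with 95% intervals from limma; VHL-r is in blue, R4VPL3-1 in red, and filled points have an adjusted p of at most 0.05. TNFAIP3 and BIRC3 lie farthest to the left with both compounds, and PELI1 is filled to the right of 0 with both.

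Over the 9 libraries, the tested genes whose log2 values followed a called member most closely were named by Pearson's r, as a description of libraries that share their treatment groups and scaling. For FADD they were VPS37B (r = 0.996), PHLDA3 (r = 0.9955) and MLX (r = 0.9954). For TNFRSF1A they were FZD2 (r = 0.985), MAF (r = 0.985) and PHLDA3 (r = 0.985), and for TNFRSF10A they were B4GALT5 (r = 0.9795) and CIAO3 (r = 0.979). Among the members themselves, FADD and TNFRSF1A had r = 0.985 and FADD and TNFRSF10A r = 0.871.

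The melanocyte lineage of the line was checked on 7 markers. SOX10, MITF, DCT and S100B were expressed, PMEL stood at 20.9 to 36.8 counts, TYR at 0 to 2.14 and MLANA at 0 in all libraries, so of the pigment genes DCT was well expressed, PMEL was low, and MLANA and TYR were at or near 0. SOX10 fell by 0.79 with VHL-r (limma adjusted p = 3.14e-09) and by 1.06 with R4VPL3-1 (limma adjusted p = 1.56e-11), and MITF by 0.71 and 0.77 (limma adjusted p = 4.02e-05 and 9.87e-06). DCT, S100B and PMEL were not called with either compound (limma adjusted p from 0.160 to 0.960). The summed count of the 7 markers was 20730 to 22515 in DMSO, 11786 to 14668 with VHL-r and 10325 to 12524 with R4VPL3-1. SOX10 alone made up most of each sum, with means of 17547, 10200 and 8405, so the sum mainly follows that gene. Of 3 epithelial markers KRT14 was expressed and fell by 0.47 with R4VPL3-1 (limma adjusted p = 0.00104), and the summed count of the 3 was 350.2 to 391 in DMSO, 300.2 to 320 with VHL-r and 250.2 to 298 with R4VPL3-1. The part of these markers in the falls of FADD, TNFRSF1A and TNFRSF10A was not tested. Markers of leukocytes summed to at most 11.8 counts in any library, and markers of endothelium to at most 13.3.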

How the data were processed

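A375R cells were treated in 3 biological repeats per group, as the study's methods state. Polyadenylated RNA was made into stranded libraries and read as single reads of 100 bases. With STAR the authors aligned these reads to GRCh38, and they counted reads per gene and normalized the counts with DESeq2 (1.36.0 in the submitters' processing notes). The deposited values are a signal, gene counts divided by a size factor per library and rounded to 2 decimals. Over all 9 libraries, 100% of the values above 0 were whole multiples of the value of 1 read within 0.1, which gave totals of 26435568 to 32085626 reads and size factors of 0.934 to 1.10. At this depth the lowest count of a member in a library was 209 reads.

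limma (3.58.1, R 4.3.3) was fitted with trend to log2(value + 1) of the 15230 genes whose mean reached 10, with treatment as the single factor over all 9 libraries, and p-values were adjusted over all these genes by the method of Benjamini and Hochberg. A fold change on this scale understates the change of low genes. Tests of the recovered reads by edgeR (4.0.16) and by DESeq2 (1.42.0) were alternatives, beside other pseudocounts (0.1 and 5), filters (none and a mean of at least 50), TMM scaling, a robust fit, a fit of the 6 libraries compared, a replicate block and leaving out each library. TMM factors moved the median gene of a library by at most 0.014 on the log2 scale. Single ratios were compared by two-sided exact permutation tests. The fit and the recovery of reads were tested on simulated data.

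The members and gene lists were chosen with earlier results of these data known. The text names all 10 members, the pathway genes called in any comparison or too low to be tested, and for each called member the 3 genes with the highest Pearson r over the 9 libraries, except 2 genes that are not reported here. Gene lengths, overlaps and coordinates came from GENCODE 44, where all 10 members had the coordinates of the deposited table, and promoters from RefSeq (GRCh38.p14). Of the 10 members, 8 shared no window of 100 exon bases with another gene. The titles give each library a group and a repeat number. The repeat numbers were not used as a block in the tests reported.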

Additional observations from a re-analysis of the deposited data

How the results depend on the processing

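Each member's log2 fold change was recomputed under 16 alternatives per comparison. FADD and TNFRSF1A were called lower with both compounds, and TNFRSF10A with R4VPL3-1, in every one of them, and no member was called in R4VPL3-1 against VHL-r in any. TNFRSF10A was gained with VHL-r without DMSO library 3, which gave 3 members lower where 2 were reported. MLKL was gained with R4VPL3-1 with a mean of at least 50, without R4VPL3-1 library 2, and with the replicate block, so that 4 members were lower in place of 3. The replicate block changed no other call of a member, with 2 members lower for VHL-r. With the block, all genes called rose from 3016 to 3451 for VHL-r and from 3792 to 4241 for R4VPL3-1 against DMSO. Of the 9 same-numbered pairs of libraries, 2 had deviations correlated above 0.1 (-0.0056 to 0.121). Of the 18 pairs with different numbers, 0 did (-0.148 to 0.0982). Of the 9 libraries, 6 correlated best with a library of their own number. An effect of the repeats is thus not excluded.

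Leaving out 1 library turned the sign of small differences that were called in no fit. The log2 fold change ran from -0.000157 to 0.0326 for TNFRSF10B and from -0.000346 to 0.0887 for CYLD with VHL-r against DMSO. In R4VPL3-1 against VHL-r it ran from -0.0686 to 0.00476 for CASP8, -0.0456 to 0.0624 for CFLAR, -0.0084 to 0.0283 for RIPK1, -0.00586 to 0.0693 for CYLD and -0.0341 to 0.0325 for TRADD. In the same comparison the pathway genes called ran from 0 to 1 (TRAF2, without R4VPL3-1 library 3) and all genes called from 182 to 358, beside 285 with all libraries. The cause was not tested. With 3 libraries a group, an exact test of a single ratio cannot go below p = 0.1.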

Other observations

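TNFRSF10C, a decoy TRAIL receptor that lies between TNFRSF10B and TNFRSF10A on chromosome 8, fell just under the filter and was highest in the R4VPL3-1 libraries, at 13.1, 14.9 and 13.9 normalized counts. The DMSO libraries had 9.08, 8.85 and 6.08 and the VHL-r libraries 9.01, 7.35 and 7.17. Its difference from DMSO was not called with no filter (log2 fold change 0.75, limma adjusted p = 0.317), and 33.0% of its exon bases lie under another gene on its strand. CASP10 stood above all DMSO libraries in each VHL-r library, at 52.0, 54.6 and 62.5 counts against 35.4, 42.3 and 41.6, and was not called (log2 fold change 0.49, limma adjusted p = 0.0781). Both genes were singled out after their values were seen.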
